A study of Mus musculus with 24 samples.

Results

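Megf6, Pgm5, Scrg1, Cyp2f2, Sardh and Slc27a6 are 6 mouse genes, of 20145 with a symbol on the array, that were picked for a large loss of signal after knockdown of the long noncoding RNA mPINC in cells without hormones and a much smaller one in cells with hormones. They were chosen on the siPINC1.0/1.6 and siNEG arrays themselves, with no numeric limit stated, so every value from those arrays is given below as a description without a test. The cells are HC11, a mouse mammary epithelial line that comes from Comma-D cells of a mid-pregnant Balb/c mouse and turns on milk genes when given the lactogenic hormones (LH) hydrocortisone, insulin and prolactin. RNA of each sample was hybridised to 1 Agilent 1-colour array, 24 arrays in all. In 15 of them cells had been transfected with 10 nM siRNA: siNEG, a negative control; siPINC1.0/1.6, against the splice forms mPINC1.0 and mPINC1.6; or siPINC, against these and the DCR2 forms. Each siRNA was given without hormones (−LH, n = 2) and with hormones (+LH, n = 3). Per the culture methods insulin was also in the growth and priming media, so "without hormones" means without added prolactin and hydrocortisone. Cells given hormones had first been moved from growth medium to a priming medium with another serum and without the growth factor EGF. The medium of the −LH array cells was not stated. The other 9 arrays hold cells that carried a lentivirus, all with hormones and n = 3 each: LeGO-GFP, the vector control; LeGO-1.0/1.6, which makes mPINC1.0 and mPINC1.6; and LeGO-DCR, which makes a deletion mutant without the terminal exons that hold the conserved regions. The lentiviral cells were expanded pools, and the hours of hormone treatment before the arrays were not given in the sources used here. Values are log2 of the processed signal after quantile normalization across arrays, 1 unit being a doubling, and a level is compared only with other levels of the same probe.

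mPINC is the mouse pregnancy-induced noncoding RNA, a spliced transcript of mammary epithelium without a known protein product. Lactogenic hormones act on these cells mainly through the prolactin receptor, which activates the transcription factor STAT5, and through the glucocorticoid receptor. The 6 genes have no common textbook function. Megf6 encodes a protein with many EGF-like repeats, and Scrg1 a small secreted protein best known from cartilage and from scrapie-infected brain. Pgm5 (aciculin) resembles phosphoglucomutase and sits at cell adhesions of muscle, where it binds dystrophin and utrophin. Cyp2f2 is the cytochrome P450 of lung club cells that oxidises naphthalene, Sardh the mitochondrial dehydrogenase that turns sarcosine into glycine, and Slc27a6 (FATP6) a fatty acid transport protein.

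The labels were set against a few genes first. The mPINC probe averaged 7.44 in siNEG −LH cells, 6.33 in siPINC1.0/1.6 −LH cells and 6.28 in siPINC −LH cells, with no overlap between controls and knockdowns. With hormones it averaged 4.87 for siNEG, 5.06 for siPINC1.0/1.6 and 4.37 for siPINC and was not well above background on every array, so mPINC was not lower on the arrays labelled siPINC1.0/1.6 +LH than on their controls. It reached 13.44 in LeGO-1.0/1.6 cells against 6.07 in LeGO-GFP and 6.06 in LeGO-DCR cells, and it gives no check of the LeGO-DCR label, since its place in the deletion mutant was not determined. Csn2 (beta-casein) was not well above background on any −LH array and averaged 10.94 in siNEG +LH cells, but 6.15 in LeGO-GFP and 1.90 in LeGO-1.0/1.6 cells, where it was again at background. Wap (whey acidic protein) was not well above background on any siRNA array, with or without hormones, and averaged 4.82 in LeGO-GFP cells. Ltf (lactotransferrin) was already at 7.66 in siNEG −LH cells and averaged 9.64 in siNEG +LH, 14.91 in LeGO-GFP and 10.60 in LeGO-1.0/1.6 cells. Of 8 mammary epithelial markers, 7 were well above background on all 24 arrays, Krt19 being the exception. Of 2 club cell markers measured, Scgb1a1 lay between 4.17 and 5.43 and was above background on 22 arrays, and Scgb3a1 on 1 array. Of 7 muscle markers, Acta2 and Tagln were above background on 24 arrays, Cnn1 on 20, Myh11 on 2, Des on 1 and Myog and Ckm on none. Of 6 fibroblast markers, Dcn (decorin) moved most: the summed level of the list was 9.96 to 10.05 in siNEG −LH, 8.91 to 9.02 in siPINC1.0/1.6 −LH and 12.25 to 12.39 in siNEG +LH cells, and 13.66 to 13.92 in LeGO-GFP against 9.98 to 10.08 in LeGO-1.0/1.6 cells. The sum moved in the same direction as most of the 6 genes in these 3 comparisons, but single markers went both ways. At a limma adjusted p under 0.05, 1 marker was higher and 3 lower after siPINC1.0/1.6 −LH. With hormones in siNEG cells 4 were higher and 2 lower. The share of all probes called was not counted for these siRNA comparisons, so nothing is read from their marker counts. In LeGO-1.0/1.6 against LeGO-GFP cells 1 was higher and 3 lower, beside 14.5% and 15.8% of all probes. The part of the list in the values of the 6 genes was not tested. Between 24021 and 35798 of 55681 probes were well above background on an array. The highest number belonged to LeGO-1.0/1.6 replicate 1, which also had the most outlier spots (644, against 146 to 280 on the others), and results that rest on it are given with and without it.

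RefSeq promoter windows (GRCm38.p6, 250 bases before to 50 after the start) were at hand for Megf6, Pgm5, Cyp2f2 and Sardh. The windows of Megf6 and Pgm5 hold 20 CG dinucleotides each, that of Sardh 4 and that of Cyp2f2 0, against a median of 7 over all 32851 windows. Pgm5 and Cyp2f2 are shown because both rose with hormones and stand at opposite ends of that range. Given are the 250 bases before the start, 5′ to 3′ on the gene's strand, with each CG in capitals. Pgm5 is chr19:24861843-24862092 on the minus strand and Cyp2f2 chr7:27119705-27119954 on the plus strand.
Pgm5: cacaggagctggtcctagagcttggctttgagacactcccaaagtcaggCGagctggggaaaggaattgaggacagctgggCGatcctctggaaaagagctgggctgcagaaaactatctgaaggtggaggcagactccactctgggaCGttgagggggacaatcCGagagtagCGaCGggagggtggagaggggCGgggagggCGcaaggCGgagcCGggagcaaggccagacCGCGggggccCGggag
Cyp2f2: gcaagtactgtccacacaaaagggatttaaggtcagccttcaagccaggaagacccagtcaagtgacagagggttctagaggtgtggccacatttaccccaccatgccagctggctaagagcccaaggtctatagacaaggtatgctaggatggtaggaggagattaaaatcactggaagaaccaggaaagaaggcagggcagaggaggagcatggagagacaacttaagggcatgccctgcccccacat
The printed Pgm5 stretch holds 13 CG dinucleotides. A STAT5-type motif, TTCNNNGAA, read on both strands, was in none of the 4 windows and in 8.3% of all windows. A glucocorticoid receptor-type motif, GNACA and TGTNC with 3 bases between them, was also in none of the 4 and in 0.475% of all windows. These letters were searched in this window only.

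**Figure D1:**
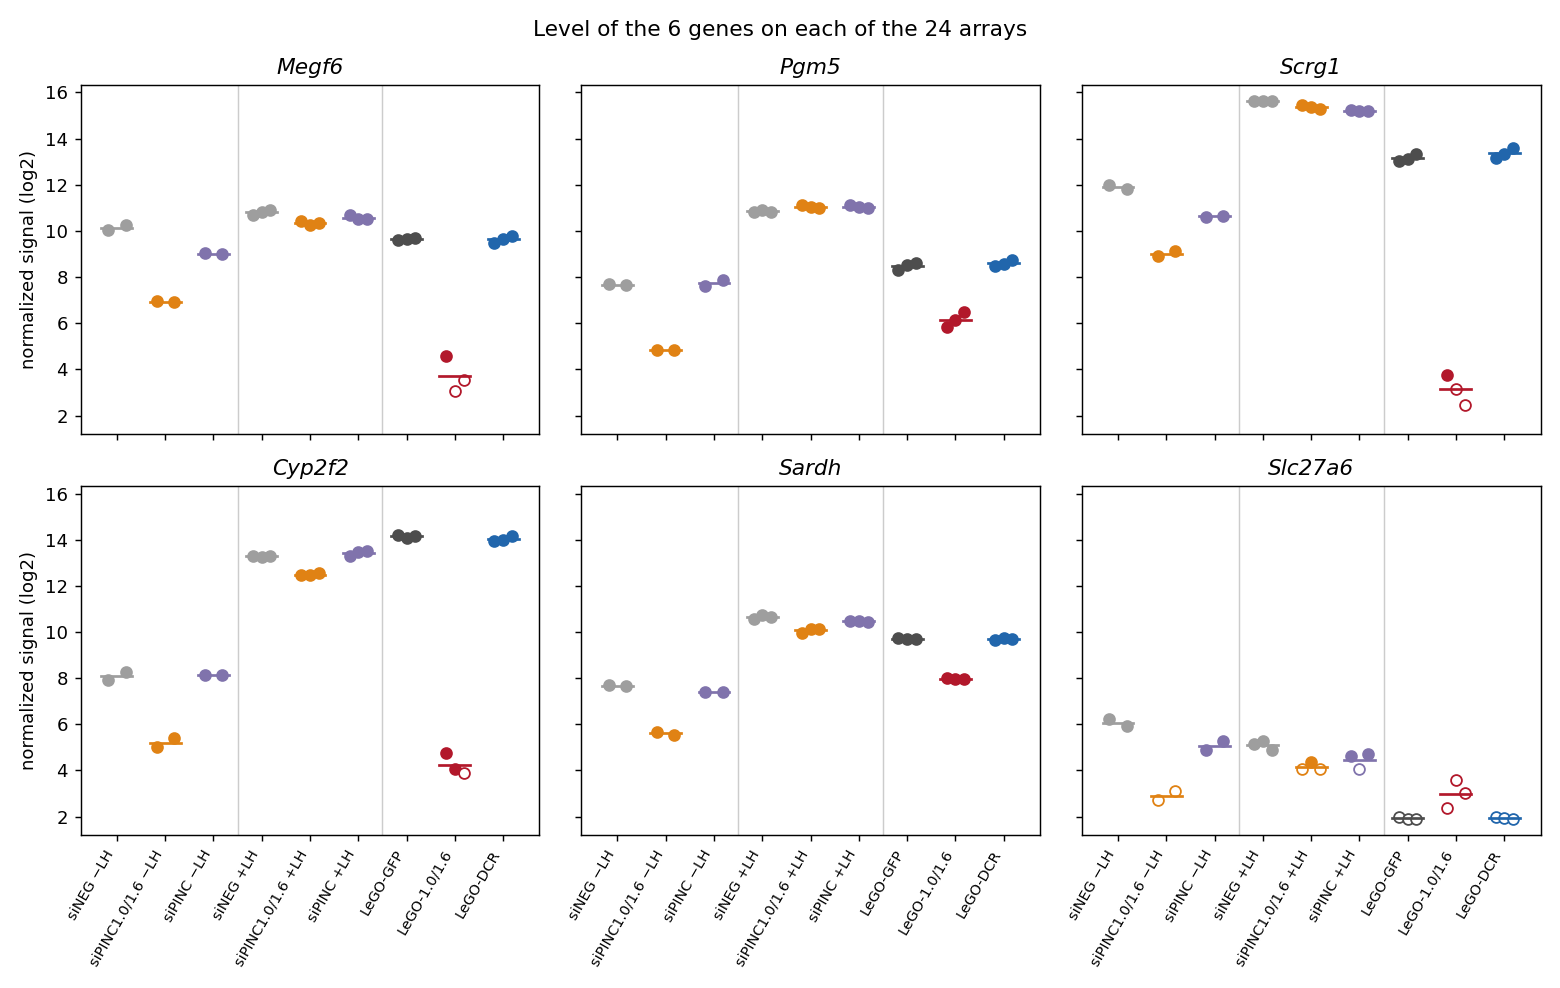
Normalized log2 signal (y axis) of each gene on each of the 24 arrays, by group (x axis: siRNA without hormones, siRNA with hormones, lentivirus with hormones). Points are arrays, open where the probe was not well above background, and lines are group means. The siPINC1.0/1.6 −LH arrays lie below siNEG −LH for all 6 genes, and in LeGO-1.0/1.6 cells Scrg1 is at 2.46 to 3.77 against 13.02 to 13.34 in LeGO-GFP cells.

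The pair of genes for extracellular proteins had this pattern. Megf6 was at 10.04 and 10.26 in siNEG −LH cells and at 6.96 and 6.91 in siPINC1.0/1.6 −LH cells. The log2 difference was −3.21 (SE 0.0969), a 9.26-fold lower level, at place 10 from the lowest of 55681 probes. In RNA of whole cultures, fewer cells that express a gene and less RNA per cell cannot be told apart. With hormones, the siNEG arrays were at 10.68, 10.80 and 10.92 and the siPINC1.0/1.6 arrays at 10.43, 10.26 and 10.34. The groups did not overlap there either, but the difference was only −0.46 (SE 0.088). Scrg1 was at 11.97 and 11.81 in siNEG −LH and at 8.90 and 9.12 in siPINC1.0/1.6 −LH cells, a difference of −2.88 (SE 0.108) or 7.35-fold. With hormones Scrg1 was at 15.61, 15.64 and 15.62 in siNEG and 15.44, 15.39 and 15.30 in siPINC1.0/1.6 cells. That difference was −0.25 (SE 0.051).

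Pgm5, the adhesion protein, was at 7.69 and 7.66 in siNEG −LH and at 4.85 and 4.84 in siPINC1.0/1.6 −LH cells, a difference of −2.83 (SE 0.0975) or 7.11-fold. With hormones its sign turned: siNEG cells were at 10.81, 10.89 and 10.84 and siPINC1.0/1.6 cells at 11.12, 11.05 and 10.97, a difference of 0.20 (SE 0.0586). The siPINC1.0/1.6 difference changed by 3.03 (SE 0.108) between the hormone states on this probe, and by 3.31 and 1.05 on the other Pgm5 probes. The higher +LH level rests on this probe, since the others gave −0.02 and −0.17 with overlapping groups. Without hormones those probes gave −3.34 (SE 0.652) and −1.22 (SE 0.744), and on the latter the groups overlapped.

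The enzymes Cyp2f2 and Sardh were both low without hormones. Cyp2f2 was at 7.93 and 8.29 in siNEG −LH and at 4.998 and 5.41 in siPINC1.0/1.6 −LH cells, a difference of −2.90 (SE 0.199) or 7.47-fold. With hormones the siNEG arrays were at 13.31, 13.27 and 13.28 and the siPINC1.0/1.6 arrays at 12.46, 12.47 and 12.54, a difference of −0.80 (SE 0.0656). Sardh was at 7.68 and 7.67 in siNEG −LH and at 5.66 and 5.55 in siPINC1.0/1.6 −LH cells, a difference of −2.07 (SE 0.0628) or 4.21-fold. It stood at place 134 from the lowest of all probes. With hormones Sardh was at 10.54, 10.75 and 10.66 in siNEG and at 9.96, 10.15 and 10.15 in siPINC1.0/1.6 cells, a difference of −0.56 (SE 0.076).

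Slc27a6, the fatty acid transporter, had the dimmest probe. It was at 6.21 and 5.95 in siNEG −LH cells and, at 2.73 and 3.10, not well above background on either siPINC1.0/1.6 −LH array, which bounds the loss at at least 3.58-fold. An "at least" fold sets the bright group's mean against the mean of the dim arrays. Each dim array was taken at its lowest signal that counted as well above background, or at the probe's own signal where that was higher. With hormones the siNEG arrays were at 5.14, 5.28 and 4.87 and the siPINC1.0/1.6 arrays at 4.06, 4.35 and 4.05, with 1 of the latter above background. The +LH difference was −0.94 (SE 0.191), and −0.32 with normexp background correction on the spots' median signal in place of the scanner's processed signal. The −LH difference was −0.94 with normexp.

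All 6 genes had siPINC1.0/1.6 −LH arrays wholly below siNEG −LH, as did 25% of all probes, which the choice of the genes fixes and from which nothing is read. With hormones 5 of 6 were wholly below and 1 wholly above, as were 10.3% and 8.39% of all probes. The median difference of the 6 was −2.89 without and −0.51 with hormones, beside −0.01 and −0.01 over all probes. With normexp the −LH differences ran from −2.72 (Scrg1) to −0.94 (Slc27a6), with −2.65 for Megf6, −1.82 for Cyp2f2, −1.61 for Pgm5 and −1.23 for Sardh, and their median was −1.71. Within slide 2, which holds all siPINC1.0/1.6 +LH arrays and 2 of the 3 siNEG +LH arrays, the +LH differences were between −0.92 (Slc27a6) and 0.18 (Pgm5).

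**Figure D2:**
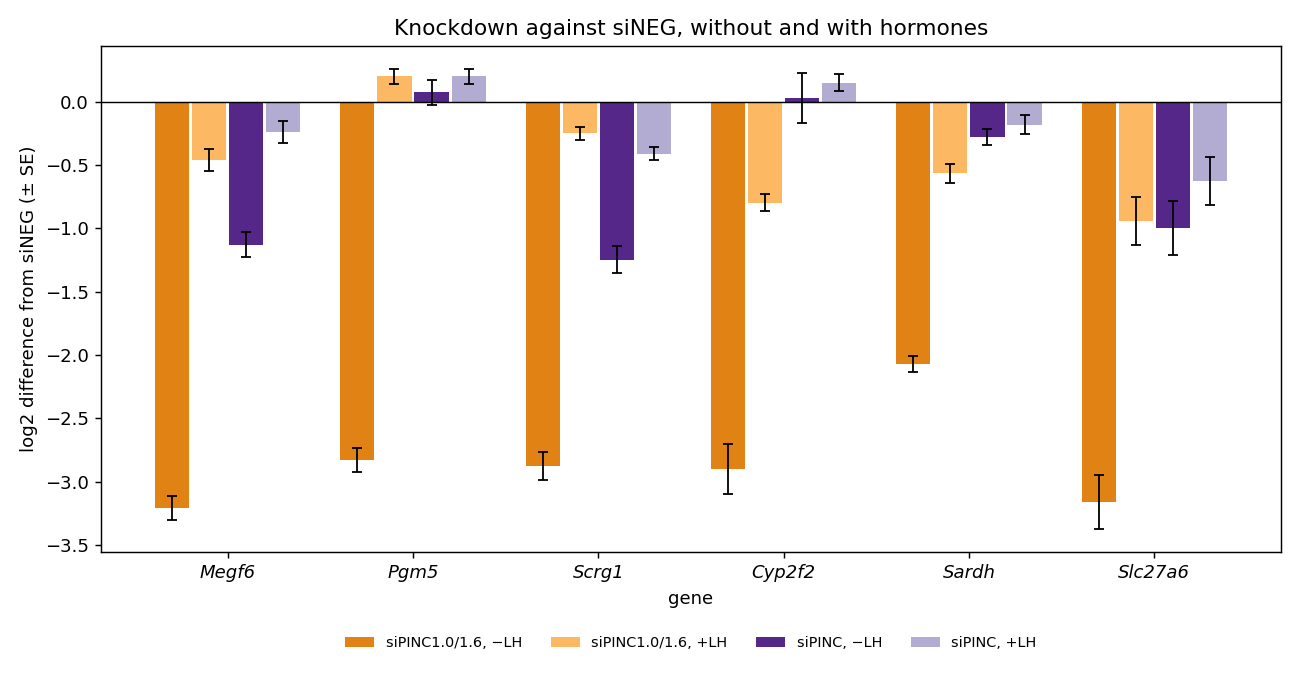
Log2 difference from siNEG (y axis, bars ± SE) for the 6 genes after siPINC1.0/1.6 or siPINC, without (n = 2 per group) and with hormones (n = 3 per group). The siPINC1.0/1.6 −LH bars run from −2.07 (Sardh) to −3.21 (Megf6), and all other bars lie at or above −1.25.

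The second knockdown, siPINC, did not enter the rule that chose the genes. It shares the siNEG arrays with siPINC1.0/1.6, so its differences are also given without a test. Per the paper each knockdown used a pair of siRNAs, and the pairs have an siRNA in common. The knockdowns are therefore not independent reagents. Without hormones the 6 genes did not move as 1 group. Scrg1 was at 10.62 and 10.66 and Megf6 at 9.06 and 8.98, differences of −1.25 (SE 0.108) and −1.13 (SE 0.0969) from siNEG. Slc27a6 was at 4.90 and 5.27, a difference of −0.996 (SE 0.211) that was −0.38 with normexp and −0.61 with the series matrix values, and Sardh at 7.42 and 7.38, a difference of −0.28 (SE 0.0628). These 4 did not overlap siNEG, as 19.8% of all probes were wholly below. Pgm5, at 7.63 and 7.87, and Cyp2f2, at 8.13 and 8.15, overlapped their controls, with differences of 0.08 (SE 0.0975) and 0.03 (SE 0.199). With hormones 3 genes were wholly below siNEG (Scrg1, Sardh and Slc27a6) and 1, Pgm5, wholly above, beside 10.9% and 9.53% of all probes. The sizes there ran from −0.63 (SE 0.191, Slc27a6) to 0.20 (SE 0.0586, Pgm5).

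What hormones did to the 6 genes was tested in siPINC cells, because neither siPINC group entered the rule that chose the genes. The genes were still chosen with earlier results of these data known, so the p-values are not from unseen data. At a limma adjusted p under 0.05, 5 of 6 genes rose and 0 fell, beside 13.5% of all probes higher and 14.6% lower. Cyp2f2 went from 8.13 and 8.15 without to 13.31, 13.47 and 13.53 with hormones, a log2 rise of 5.30 (SE 0.129) or 39.4-fold (limma adjusted p = 1.25e-09). Scrg1 rose by 4.57 (SE 0.0767) or 23.8-fold (limma adjusted p = 1.3e-10), from 10.62 and 10.66 to 15.25, 15.20 and 15.19. Pgm5 rose by 3.30 (SE 0.0765) or 9.82-fold (limma adjusted p = 8.64e-10), from 7.63 and 7.87 to 11.12, 11.01 and 11.01. In each of the 3 every +LH array was far above every −LH array.

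Sardh rose by 3.07 (SE 0.0775) or 8.39-fold (limma adjusted p = 1.45e-09), from 7.42 and 7.38 to 10.49, 10.49 and 10.43. Megf6 rose least, by 1.54 (SE 0.0976) or 2.92-fold (limma adjusted p = 5.73e-07), from 9.06 and 8.98 to 10.69, 10.51 and 10.49. Slc27a6 was at 4.90 and 5.27 without and at 4.62, 4.08 and 4.71 with hormones. Its difference of −0.61 (SE 0.215) did not pass the test (limma adjusted p = 0.0587), and it did without siPINC +LH replicate 3 (−0.73, limma adjusted p = 0.0415). The hormone difference, for each siRNA, may also hold the change of medium before hormones and a difference in culture time. These cannot be told apart from the hormones. All siPINC −LH arrays are on slide 1 and all siPINC +LH arrays on slide 2, so hormones and slide cannot be told apart in these cells. With a term for the slide, which siNEG +LH replicate 1 and LeGO-GFP replicate 1 on slide 1 allow, the rise of Megf6 was 1.36 and lost its call (limma adjusted p = 0.057), while the other 4 were still called, at rises of 2.91 to 5.33. Of the 6 fibroblast markers 3 rose in the same cells (Dcn by 6.69, Pdgfra by 1.77 and Lum at least 1.17-fold) and 2 fell (Col1a1 with a difference of −2.61 and Col1a2 with −2.29), and the part of such cells in the members' rise was not tested.

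In siNEG cells, where slide 1 holds both −LH arrays and 1 +LH array, the hormone differences were 5.18 for Cyp2f2, 3.74 for Scrg1, 3.17 for Pgm5, 2.97 for Sardh, 0.65 for Megf6 and −0.98 for Slc27a6. Within slide 1 they were 5.2, 3.72, 3.14, 2.87, 0.53 and −0.94 in the same order. In siPINC1.0/1.6 cells they were 7.28 for Cyp2f2, 6.37 for Scrg1, 6.20 for Pgm5, 4.48 for Sardh and 3.41 for Megf6. Slc27a6 was higher with hormones there by 1.24 (SE 0.215), with 1 of 3 arrays above background against 0 of 2, so no fold is given. The groups were wholly apart upward for 5 genes in siNEG and 6 in siPINC1.0/1.6 cells, beside 24.4% and 25% of all probes, and downward for Slc27a6 in siNEG cells, beside 21.8%. These arrays chose the genes, and the hormone differences of the 3 siRNAs share no arrays.

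**Figure D3:**
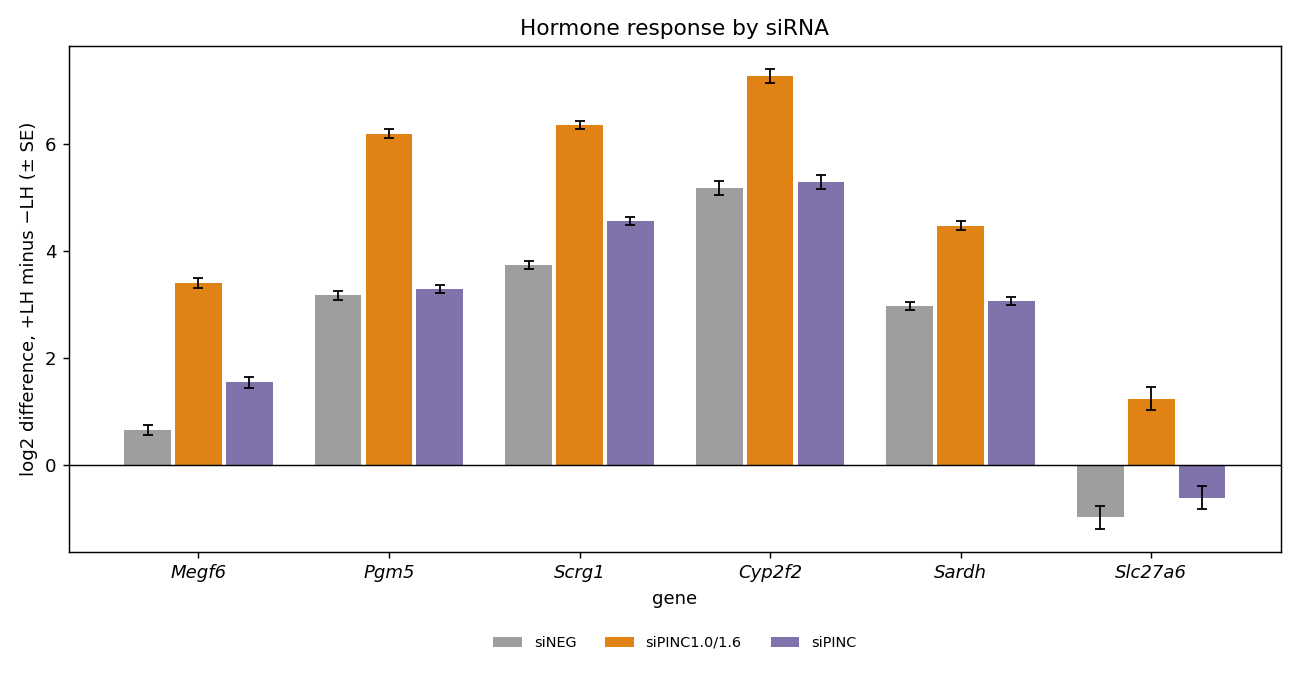
Log2 difference between cells with and without hormones (y axis, bars ± SE; n = 3 against n = 2) for the 6 genes after siNEG, siPINC1.0/1.6 or siPINC. Cyp2f2 has the tallest bars (5.18, 7.28 and 5.30), and Slc27a6 is below 0 in siNEG and siPINC but above 0 in siPINC1.0/1.6 cells.

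The lentivirus arrays compare hormone-treated cells with and without an excess of mPINC. None of them entered the rule that chose the genes, but the genes were chosen with earlier results of these data known. Whether the arrays of a vector came from the same transduced pool was not given, so vector and pool cannot be told apart. There 5 of the 6 genes were lower in LeGO-1.0/1.6 than in LeGO-GFP cells at an adjusted p under 0.05, beside 15.8% of all probes. Scrg1 was at 13.02, 13.13 and 13.34 in LeGO-GFP and at 3.77, 3.17 and 2.46 in LeGO-1.0/1.6 cells, where 1 of 3 arrays was above background. It fell by 10.03 on the log2 scale (SE 0.309, limma adjusted p = 6.43e-07). With each dim array held at no less than its lowest signal above background the loss was at least 665-fold.

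Cyp2f2 was at 14.21, 14.08 and 14.15 in LeGO-GFP and at 4.74, 4.07 and 3.90 in LeGO-1.0/1.6 cells, 2 of 3 above background. It fell by 9.91 (SE 0.203, limma adjusted p = 1.45e-07) and by at least 959-fold when bounded in the same way. Megf6 was at 9.59, 9.64 and 9.70 in LeGO-GFP and at 4.59, 3.07 and 3.52 in LeGO-1.0/1.6 cells, 1 of 3 above background. It fell by 5.92 (SE 0.348, limma adjusted p = 1.21e-05), or at least 47.9-fold. The highest LeGO-1.0/1.6 value of these 3 genes was each time that of replicate 1, and without it the log2 differences were −10.35 for Scrg1, −10.16 for Cyp2f2 and −6.35 for Megf6. A dimmer Megf6 probe, A_55_P2100871, was below background in both groups, with a difference of −0.91 that was not called (limma adjusted p = 0.0863).

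Pgm5 and Sardh stayed measurable on every array. Pgm5 was at 8.32, 8.53 and 8.62 in LeGO-GFP and at 5.85, 6.15 and 6.47 in LeGO-1.0/1.6 cells and fell by 2.33 (SE 0.164), or 5.04-fold (limma adjusted p = 2.95e-05). Its probe A_52_P229924 gave −1.31 without a call (limma adjusted p = 0.0576) and its probe A_65_P17602 −4.19 (limma adjusted p = 1.57e-07). Sardh was at 9.73, 9.69 and 9.71 in LeGO-GFP and at 7.999, 7.95 and 7.97 in LeGO-1.0/1.6 cells and fell by 1.73 (SE 0.0436), or 3.33-fold (limma adjusted p = 2.86e-07). Without replicate 1 the differences were −2.18 and −1.75. Within slide 3, which holds all but LeGO-GFP replicate 1, they were −2.42 and −1.72, and −10.10, −9.88 and −5.94 for Scrg1, Cyp2f2 and Megf6. Slc27a6 was not well above background on any of the 9 lentivirus arrays, at 1.97, 1.89 and 1.90 in LeGO-GFP and 2.36, 3.58 and 3.02 in LeGO-1.0/1.6 cells. The difference of 1.07 passed the test (limma adjusted p = 0.0195), beside 14.5% of all probes called higher, but it is a difference between signals at background, and no fold is given. The call was lost without LeGO-GFP replicate 2 (limma adjusted p = 0.0584), without LeGO-GFP replicate 3 (0.0576) and without LeGO-1.0/1.6 replicate 3 (0.0591). Beside these falls, the summed epithelial markers were at 15.54 to 15.63 in LeGO-1.0/1.6 and 16.63 to 16.68 in LeGO-GFP cells. The brightest genes weigh most in this sum. Of the 8 markers 6 were called lower and 0 higher, beside 15.8% and 14.5% of all probes, with a median difference of −0.47. Against LeGO-DCR cells the single markers ran from −2.85 (Krt5) to 0.09 (Krt18). Of the 6 fibroblast markers 3 fell: Dcn with a difference of −4.62, Col3a1 with −4.12 and Lum, at least 5.75-fold lower and at background. Pdgfra rose by 0.96, and Col1a1 and Col1a2 were not called. The part of these markers in the result was not tested.

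With the deletion mutant, the genes that were above background stood near the vector control. Between LeGO-DCR and LeGO-GFP cells 0 of 6 genes were called by limma at an adjusted p under 0.05. Of all probes 0.0664% were called lower and 0.00718% higher, so this count says nothing particular to the 6 genes. An unadjusted limma p under 0.05 was reached by 0 of the 6. Scrg1 was at 13.18, 13.35 and 13.61 in LeGO-DCR cells, a difference of 0.21 (95% interval −0.52 to 0.94). Cyp2f2 was at 13.95, 14.01 and 14.14, a difference of −0.11 (−0.59 to 0.37). Megf6, at 9.50, 9.67 and 9.79, differed by 0.01 (−0.81 to 0.83), and Pgm5, at 8.48, 8.58 and 8.73, by 0.11 (−0.28 to 0.49). The interval was narrowest for Sardh, which was at 9.66, 9.73 and 9.71 and differed by −0.01 (−0.11 to 0.09). All 6 genes overlapped LeGO-GFP.

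LeGO-1.0/1.6 cells stood nearly as far from LeGO-DCR as from LeGO-GFP cells, a comparison that shares the LeGO-1.0/1.6 arrays. Here 5 of 6 genes were lower, beside 15.1% of all probes, and 1 higher, Slc27a6 at background, beside 14.5%. Scrg1 was lower by at least 770-fold (difference −10.25, SE 0.309, limma adjusted p = 5.85e-07), Cyp2f2 by at least 887-fold and Megf6 by at least 48.2-fold, each bounded as before. The measured differences were −9.80 for Cyp2f2, −5.93 for Megf6, −2.44 for Pgm5 and −1.73 for Sardh, each with a limma adjusted p of at most 2.35e-05. The call of Slc27a6 was lost without LeGO-1.0/1.6 replicate 3 or any 1 of the LeGO-DCR arrays (limma adjusted p of 0.0566 to 0.0652).

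**Figure D4:**
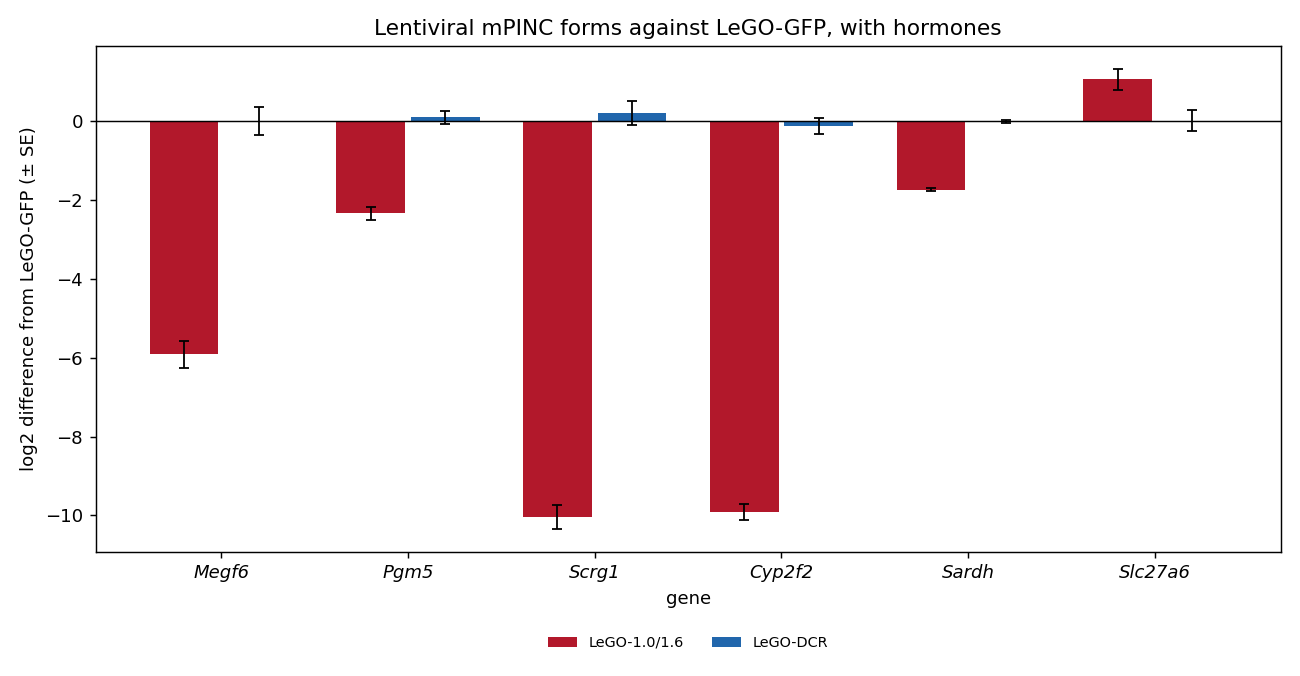
Log2 difference from LeGO-GFP (y axis, bars ± SE, n = 3 per group) for the 6 genes, all with hormones, in cells that carry LeGO-1.0/1.6 or LeGO-DCR. The LeGO-1.0/1.6 bars run from −10.03 (Scrg1) to 1.07 (Slc27a6, at background in both groups), and the LeGO-DCR bars from −0.11 to 0.21.

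The order of the 9 groups differed from gene to gene. LeGO-1.0/1.6 cells were lowest for Megf6, Scrg1 and Cyp2f2, and siPINC1.0/1.6 −LH cells were lowest for Pgm5 and Sardh and came next to lowest for the other 3 named. At the top, Megf6, Scrg1 and Sardh were highest in siNEG +LH cells, Pgm5 in siPINC1.0/1.6 +LH cells, with siPINC +LH cells at the same level (11.05 and 11.05), and Cyp2f2 in LeGO-GFP cells. Slc27a6 was highest in siNEG −LH cells, and its lowest groups, the lentivirus and siPINC1.0/1.6 −LH cells, were all at background and have no order. LeGO-GFP and LeGO-DCR stood next to each other with overlapping ranges for every gene but Slc27a6, for which they have no order. The ranges of siNEG +LH and siPINC +LH also overlapped for Megf6 and Cyp2f2, and those of siNEG −LH and siPINC −LH for Pgm5 and Cyp2f2.

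Across the 24 arrays, the 6 genes fell into a group of 5 and Slc27a6. The highest Pearson r between members was 0.971 (Megf6 and Scrg1), and the next 0.902 (Pgm5 and Sardh). Megf6 and Sardh, at 0.609, were the least alike of the 5, and Slc27a6 had r between −0.112 (Cyp2f2) and 0.345 (Pgm5) with the others. These are descriptions over arrays that share 9 group means and the hormone difference. By the same measure, among probes with a symbol that were above background throughout at least 1 group, the genes most like Megf6 were Dapl1 (0.991), Il17b (0.987) and the basal keratin Krt15 (0.983). Krt15 followed it into the loss states, with 12.57 in siNEG −LH, 9.30 in siPINC1.0/1.6 −LH, 15.60 in siNEG +LH, 14.02 in LeGO-GFP and 4.38 in LeGO-1.0/1.6 cells.

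Scrg1 was most like Ephx1 (0.995), the microsomal epoxide hydrolase, then Kank4 (0.994) and Zfp784 (0.992). Kank4, a regulator of the actin cytoskeleton, averaged 7.42 in siNEG −LH, 6.07 in siPINC1.0/1.6 −LH and 9.83 in siNEG +LH cells and fell to 1.93 in LeGO-1.0/1.6 cells from 8.26 in LeGO-GFP cells. Pgm5 was most like Gucd1 (0.98), Bbs2 (0.974) and the hexokinase Hk1 (0.974), Cyp2f2 most like Arhgef17 (0.988), Aamdc (0.988) and the chemokine Cx3cl1 (0.987), and Sardh most like Dcaf6 (0.993), Srgap3 (0.988) and Parm1 (0.987). The group means of Hk1 ran from 13.49 to 15.25 and those of Cx3cl1 from 12.22 to 13.45, and the order of the groups was not always that of the member: Hk1 was highest in siNEG +LH cells, Pgm5 in siPINC1.0/1.6 +LH cells. Slc27a6 had looser companions, the mitochondrial carrier Slc25a29 (0.936), the shelterin gene Acd (0.924) and the receptor gene Lifr (0.911). The mean of the 6 members, each scaled to the same spread, was most like Rpl22 (0.991), Fgfrl1 (0.988) and Dab2 (0.986). With Spearman correlations 2 of these 21 names remained, so the names depend on the measure of likeness.

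**Figure D5:**
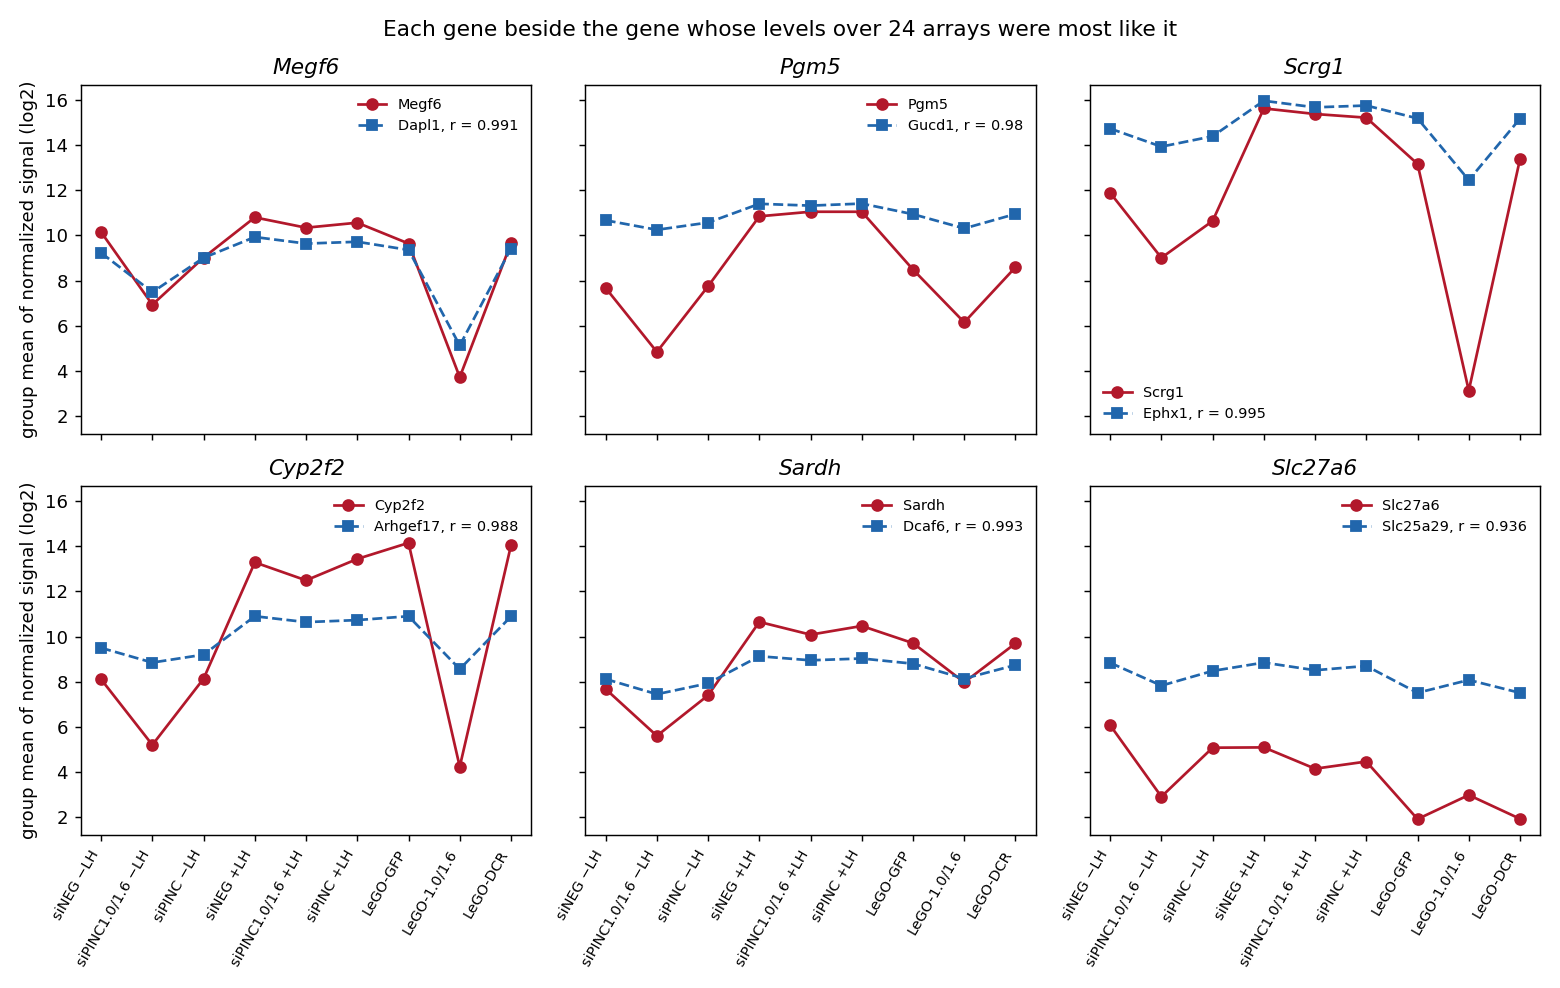
Group means of the normalized log2 signal (y axis) in the 9 groups (x axis) for each member (circles) and for the gene with the highest Pearson r to it over 24 arrays (squares); lines join groups only to guide the eye. Each companion dips in siPINC1.0/1.6 −LH cells, and all but Slc25a29 are lower in LeGO-1.0/1.6 than in LeGO-GFP cells. Ephx1, Dapl1 and Arhgef17 fall there over a smaller range than Scrg1, Megf6 and Cyp2f2. The companions were picked for likeness on these arrays, so nothing is read from the shared dips.

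The genes around each member in its pathway or family, listed with earlier results of these data known, were counted in the tested comparisons. Scrg1 is made by cartilage cells, and of 6 genes of its receptor and of cartilage, 3 rose and 1 fell with hormones in siPINC cells, and 1 rose and 4 fell in LeGO-1.0/1.6 against LeGO-GFP cells. Over all probes 13.5% rose and 14.6% fell with hormones and 14.5% rose and 15.8% fell with LeGO-1.0/1.6, and the counts of this and the following lists stand beside these shares. The median differences were 0.94 and −1.80, beside 0.01 and −0.01 over all probes. Col2a1, the cartilage collagen, rose by 4.05 (SE 0.137, limma adjusted p = 7e-09) and fell by 5.57 (SE 0.0876, limma adjusted p = 5.8e-08). Acan, the cartilage proteoglycan aggrecan, rose by 1.199 and fell by 5.17, and Sox9, the transcription factor of cartilage cells, rose by 1.37 and fell by 1.26. Comp, a cartilage matrix protein, fell by 2.34 in LeGO-1.0/1.6 cells, with 1 of 3 arrays above background. Bst1, a receptor of Scrg1, moved little: it fell by 0.40 with hormones (limma adjusted p = 0.0273) and differed by −0.11 in LeGO-1.0/1.6 cells without a call.

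Sarcosine is broken down by Sardh in mitochondria and by Pipox in peroxisomes. Pipox was not well above background on either siPINC −LH array and averaged 7.21 in siPINC +LH cells, at least 9.51-fold higher (limma adjusted p = 3.07e-06). In LeGO-1.0/1.6 cells it was again not well above background on any array, at least 5.83-fold below its mean of 5.84 in LeGO-GFP cells (limma adjusted p = 0.000546). Of the 20 sarcosine, choline and folate enzymes, 3 rose and 7 fell with hormones, and 7 rose and 6 fell with LeGO-1.0/1.6, with medians of −0.05 and 0.14. Aldh1l1, which oxidises formyl-tetrahydrofolate, rose by 2.93 with hormones, while the serine hydroxymethyltransferases Shmt2 and Shmt1 fell by 1.80 and fell by 1.79. With LeGO-1.0/1.6, the choline dehydrogenase Chdh fell by 2.89, and Mthfd2 and Aldh1l2, of the mitochondrial folate pathway, rose by 2.06 and 1.83.

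Of the 13 measured Cyp2 neighbours and partners of Cyp2f2, 2 rose and 1 fell with hormones, and 2 rose and 3 fell with LeGO-1.0/1.6 (medians 0.02 and −0.17). Cyp2b10, a P450 of liver, was not above background on either siPINC −LH array and was at least 1.35-fold higher with hormones (limma adjusted p = 5.96e-05), where 1 of 3 arrays was above it. Ephx1, whose enzyme hydrolyses the epoxides that P450 enzymes make, rose by 1.36 (limma adjusted p = 1.3e-07) and fell by 2.73 (limma adjusted p = 1.08e-07), and Cyp2s1 went the other way, fell by 1.32 and rose by 1.92. Cyp2b19, of skin keratinocytes, was at least 1.67-fold lower in LeGO-1.0/1.6 cells. Among 7 phosphoglucomutases and partners of Pgm5, 2 rose and 1 fell with hormones, and 3 rose and 2 fell with LeGO-1.0/1.6 (medians 0.12 and −0.05). Dmd, which encodes the Pgm5 partner dystrophin, rose by 2.51 (SE 0.502, limma adjusted p = 0.00289) with 1 of 2 −LH arrays above background, and was at background with LeGO-1.0/1.6, where its level was at least 2.81-fold below that of LeGO-GFP cells (limma adjusted p = 0.00532). Pgm2, a relative with enzyme activity, rose by 0.93 with LeGO-1.0/1.6. Pgm3, an enzyme of amino sugar synthesis, fell by 0.51 with hormones and rose by 0.44 with LeGO-1.0/1.6.

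Of 7 relatives of Megf6 with EGF-like repeats, 1 rose and 2 fell with hormones and 1 rose and 2 fell with LeGO-1.0/1.6 (medians 0.13 and −0.002). Scarf2 rose by 1.43 and fell by 0.85, while Megf10, a receptor for dying cells, fell by 2.57 and rose by 1.85. Among 14 genes of fatty acid transport and activation, 2 rose and 5 fell with hormones and 5 rose and 5 fell with LeGO-1.0/1.6 (medians −0.16 and 0.04). The transporters Slc27a1 and Slc27a3 went apart with hormones, where Slc27a1 rose by 1.04 and Slc27a3 fell by 1.33, and Acsl1, which activates long-chain fatty acids, rose by 1.67. In LeGO-1.0/1.6 cells Slc27a3 fell by 1.603 and Acsl1 fell by 0.90, while Acsl4, another activating enzyme, rose by 1.53 and Fabp4, the adipocyte fatty acid-binding protein, rose by 3.66. In LeGO-DCR against LeGO-GFP cells limma called 0 genes of these 6 lists, 6 of their 67 measured genes having an unadjusted p under 0.05.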

How the data were processed

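Per the file headers, the authors scanned 1-colour (Cy3) Agilent arrays with Feature Extraction 11.0.1.1, and the deposited intensity used here is its processed signal, already background-subtracted. The authors quantile normalized the array data per their methods, and the deposited series matrix holds log2 values with column medians of 5.23 to 5.248, ordered as median signal minus background, and served as an alternative; its centring and offset are unknown, its direction is that of the signal.

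Control and outlier-flagged spots were left out, log2 signals were quantile normalized over 24 arrays, and spots of a probe averaged (59305 spots, 55681 probes). RefSeq accessions named 26582 probes (20145 symbols). The probe listed in the study's supplement stands for Megf6, Pgm5, Scrg1 and Sardh, and Cyp2f2 and Slc27a6 have 1 probe. Groups followed GEO's labels. limma 3.58.1 in R 4.3.3 (lmFit, eBayes; Benjamini-Hochberg over all probes; 0.05) was fitted separately to −LH, +LH, all siRNA and lentivirus arrays and was tested on simulated data. Without counts, the number of arrays limits the precision. The methods call the replicates biological and do not say whether they were separate cultures, so p-values measure the spread between these samples. For the lentivirus arrays the number of transductions was not given either, so the p-values cannot tell the vector from the transduced pool. Named beside the 6 genes are the 3 most alike genes of each and at most 4 called genes per list and comparison, largest first. The members and gene lists were chosen with earlier results of these data known. Alternatives were 75th-percentile scaling, normexp (offset 50), the series matrix, bright probes, all arrays together, a slide term, trend and robust eBayes, the methods' t-test with Benjamini-Hochberg adjustment, a replicate block, each array left out, and other probes. Promoters came from RefSeq (GRCm38.p6), read in Python 3.11.15. Protein sequences and the promoters of Scrg1 and Slc27a6 were not used here.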

Additional observations from a re-analysis of the deposited data

Results flagged for a closer look

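Contrasts of the 6 genes were compared for opposite directions, 30 pairs of effects in all, and 3 pairs had every array of one on one side and every array of the other on the opposite side. For Pgm5, siPINC1.0/1.6 cells differed from siNEG cells by −2.83 without and by 0.20 with hormones. The latter was −0.02 and −0.17 on the other Pgm5 probes. For Slc27a6, the hormone difference was −0.98 in siNEG cells and −0.61 in siPINC cells, and 1.24 in siPINC1.0/1.6 cells, where 0 of 2 arrays without and 1 of 3 arrays with hormones were above background. Whether the effects of a pair differ was not tested, since each pair holds a siPINC1.0/1.6 effect and the genes were chosen on those arrays. No group holds 4 to 10 arrays, so no array could be called an outlier.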

How the results depend on the processing

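Of the tested values, 451 kept their direction and side of the threshold under the alternatives, 13 lost and 2 gained a call, and 11 turned sign; of the described values, 652 moved by less than the replicate SD, 68 by more, and 3 that lay over 2 SE from 0 turned sign. Another 5 turned sign from within 2 SE of 0, all for siPINC −LH: Cyp2f2 at −0.005 (normexp), −0.006 (series matrix) and −0.15 (without siNEG −LH replicate 1), and Pgm5 at −0.188 (probe A_65_P17602) and −0.042 (without siPINC −LH replicate 2). The value of probe A_65_P17602 is counted among the 68, the others among the 652. The causes were not tested.

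With normexp the median of the 6 genes was −1.713 for siPINC1.0/1.6 −LH, 1.413 for its change with hormones, −0.28 for siPINC −LH, 2.744 for hormones in siNEG and 4.004 in siPINC1.0/1.6 cells. With the series matrix it was −2.418, 2.116 and 4.822 for the first, second and last of these. Of 21 companion genes, 2 remained with Spearman correlations and 8 with group means.

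The sign turned in LeGO-DCR against LeGO-GFP cells, where all values lie near 0: for Megf6 at −0.006 (75th percentile), −0.016 (slide term, and without LeGO-GFP replicate 1) and −0.06 (without LeGO-DCR replicate 3); for Sardh at 0.004 (slide term, and without LeGO-GFP replicate 1) and 0.011 (without LeGO-DCR replicate 1); for Slc27a6 at −0.104 (75th percentile), −0.002 (without LeGO-GFP replicate 2) and −0.009 (without LeGO-DCR replicate 1); and for Pgm5 at −0.019 on probe A_52_P229924. With 1 array left out these differences reached 0.088 for Megf6, −0.023 for Sardh and 0.037 for Slc27a6 at their other ends. Other Pgm5 probes also turned siPINC1.0/1.6 +LH (−0.02 and −0.166) and siPINC +LH (−0.173). Slc27a6 lost its LeGO-1.0/1.6 calls in the methods' t-test (adjusted p = 0.125 against LeGO-GFP and 0.118 against LeGO-DCR), and its hormone difference in siPINC cells was called among bright probes (limma adjusted p = 0.0278).

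With 1 array left out, 5 to 6 of the 6 genes were called for hormones in siPINC cells and for LeGO-1.0/1.6 against either control, and 0 for LeGO-DCR. The call that came and went was that of Slc27a6, which went against the other 5 and was at background on the lentivirus arrays. With all arrays, 13.5% of all probes were called higher and 14.6% lower for hormones. For LeGO-1.0/1.6 it was 14.5% and 15.8% against LeGO-GFP, and 14.5% and 15.1% against LeGO-DCR. For LeGO-DCR it was 0.00718% and 0.0664%. The medians ran from −3.048 to −2.801 and from −0.568 to −0.479 for siPINC1.0/1.6 −LH and +LH, from 2.279 to 2.566 for their difference, from −0.673 to −0.552 and from −0.264 to −0.176 for siPINC, and from 3.035 to 3.106 and from 5.312 to 5.37 for hormones in siNEG and siPINC1.0/1.6 cells. The deviations of same-numbered arrays had correlations of −0.209 to 0.073. No differently numbered arrays were set beside them, so these values cannot settle whether the numbers pair the arrays. With the replicate block 5 genes were called for hormones in siPINC cells, 6 for LeGO-1.0/1.6 against LeGO-GFP and against LeGO-DCR, and 0 for LeGO-DCR, and the medians were −2.889, −0.51, 2.425, −0.637, −0.208, 3.079 and 5.349 in the order above. The block changed no call, and in the LeGO-1.0/1.6 counts Slc27a6 was again called higher and the other genes lower.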
